A study of Rattus norvegicus with 20 samples.

Results

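Heat shock proteins and their cochaperones were followed in the right ventricle of young Wistar rats after pulmonary banding or a sham operation. The members were chosen by gene name: every gene whose symbol starts with Hspa, Hspb, Hsp90, Hspd, Hspe, Hsph, Dnaja, Dnajb or Dnajc, or is Bag followed by a digit. This gave 81 of the 18282 transcript identifiers of the deposited table, and 78 genes once the identifier with the highest mean was kept for each gene. The members were set into small heat shock proteins, cytosolic HSP70 and HSP110, cytosolic HSP90, J proteins, BAG and other exchange factors, and the chaperones of the endoplasmic reticulum (ER) and of mitochondria. Of the 78 members, 69 reached a normalized count of at least 10 in at least 4 libraries and were tested.

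Pulmonary banding narrows the artery that leaves the right ventricle, so that this chamber pumps against a raised load, and a sham operation leaves out the band. The groups were banding at 4 weeks (5 rats), sham at 4 weeks (5 rats), banding at 8 weeks (4 rats) and sham at 8 weeks (5 rats) after surgery. The rats were 7 weeks old at 4 weeks after surgery and 11 weeks old at 8 weeks, so time after surgery and age cannot be told apart. No genetic change is labelled in any group, replicate 2 of banding at 8 weeks was not analysed here, and the labels give no batch. RNA came from whole tissue of the chamber, so fewer cells of a type and less RNA per cell cannot be told apart in any result that follows.

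Chaperones bind unfolded or folding proteins and keep them from clumping. Small heat shock proteins hold unfolded clients without using ATP, and in heart and skeletal muscle several of them sit on the contractile and Z-disc filaments. HSP70 proteins fold clients in cycles of ATP use, J proteins (the DNAJ families) bring the client and start the ATP step, and exchange factors such as the BAG and HSP110 proteins release the nucleotide. HSP60 with HSP10 inside mitochondria, and the HSP70 protein BiP with the HSP90 protein GRP94 inside the ER, do the same work in closed compartments. Heat shock factor 1 switches on many cytosolic chaperone genes through heat shock elements, and the unfolded protein response switches on ER chaperone genes through ER stress elements.

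Read totals recovered from the table ran from 2.70 to 8.54 M reads per library, with a median of 5.79 M, and the shallowest were replicate 1 of banding at 8 weeks and replicate 1 of sham at 8 weeks. Of 8 ventricular cardiomyocyte markers, 7 were found, and their summed normalized count lay between 423570.0 and 592090.0 in every library. The atrial myosin gene Myl7 exceeded a normalized count of 1000 in 7 libraries, namely replicate 2 of banding at 4 weeks, replicates 1 and 3 of sham at 4 weeks, replicate 3 of banding at 8 weeks and replicates 1, 2 and 5 of sham at 8 weeks. Among them Myl7 ran from 1006 in replicate 2 to 17580 in replicate 1 of sham at 8 weeks. Replicate 3 of banding at 4 weeks, at 743, lay under the limit and was kept. Results were therefore also computed without these 7 libraries. This left only replicates 3 and 4 of sham at 8 weeks and replicates 2, 4 and 5 of sham at 4 weeks. Whether a call lost this way reflects atrial tissue or the smaller groups was not tested. Macrophage markers (7 of 7 found) summed to 3588 to 4748 in banding and 2258 to 4141 in sham at 4 weeks, and to 4245 to 5114 in banding and 2375 to 3308 in sham at 8 weeks, with no overlap at 8 weeks. Ventricular cardiomyocyte markers summed to 444098 to 509099 in banding and 506628 to 592090.0 in sham at 8 weeks. The genes of that sum moved both ways at 8 weeks, with log2 fold changes from -1.30 (Myh6) to 3.22 (Myh7). Red cell genes (3 of 3 found) summed to 2311 to 11901 in banding and 1273 to 3048 in sham at 8 weeks, endothelial markers (6 of 6) to 6714 to 10916 in banding and 6241 to 6893 in sham, and neural markers (4, with 1 at 0 throughout) to 87.4 to 125 in banding and 115 to 222 in sham. These and the atrial, fibroblast, smooth muscle and adipocyte lists overlapped between banding and sham at both times. The part of these shifts in the member results was not tested.

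At 4 weeks, 18 of the 69 tested members rose in banded ventricles and 0 fell (26.1% and 0%), where 19.1% of all 10926 tested identifiers were called, 9.27% higher and 9.82% lower. A call is an adjusted p under 0.05 (Benjamini-Hochberg over all tested identifiers) in limma on log2(normalized count + 1). An unadjusted p under 0.05 was reached by 25 members, edgeR called 19 members and DESeq2 called 21, and 0 of these calls were lower in either tool. Each of these counts includes Hsp90aa1, which reached the minimum of 10 in 6 banded and 0 sham libraries. It entered the test through banded libraries alone, so its place among the higher members carries no weight. At 8 weeks, 14 members rose and 8 fell (20.3% and 11.6%), where 33.4% of all tested identifiers were called, 16.7% higher and 16.6% lower, so the shares at 8 weeks lay near the background. The libraries of banding and sham did not overlap for 11 members at 4 weeks (13.3% of all tested identifiers) and for 18 at 8 weeks (25.2%). Both comparisons used separate sham groups. Of the members, 13 were called higher at both times, 5 were called higher at 4 weeks without a call at 8 weeks, 1 was called higher at 8 weeks without a call at 4 weeks, 8 were called lower at 8 weeks without a call at 4 weeks, and 42 had no call at either time. The shares of all tested identifiers with these joint patterns were not counted, so these numbers have no background beside them. In the authors' deposited table, 19 members were higher and 0 lower at 4 weeks, and 14 were higher and 8 lower at 8 weeks, at an adjusted p under 0.05. The shares of all identifiers in the authors' table were not counted either.

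**Figure D1:**
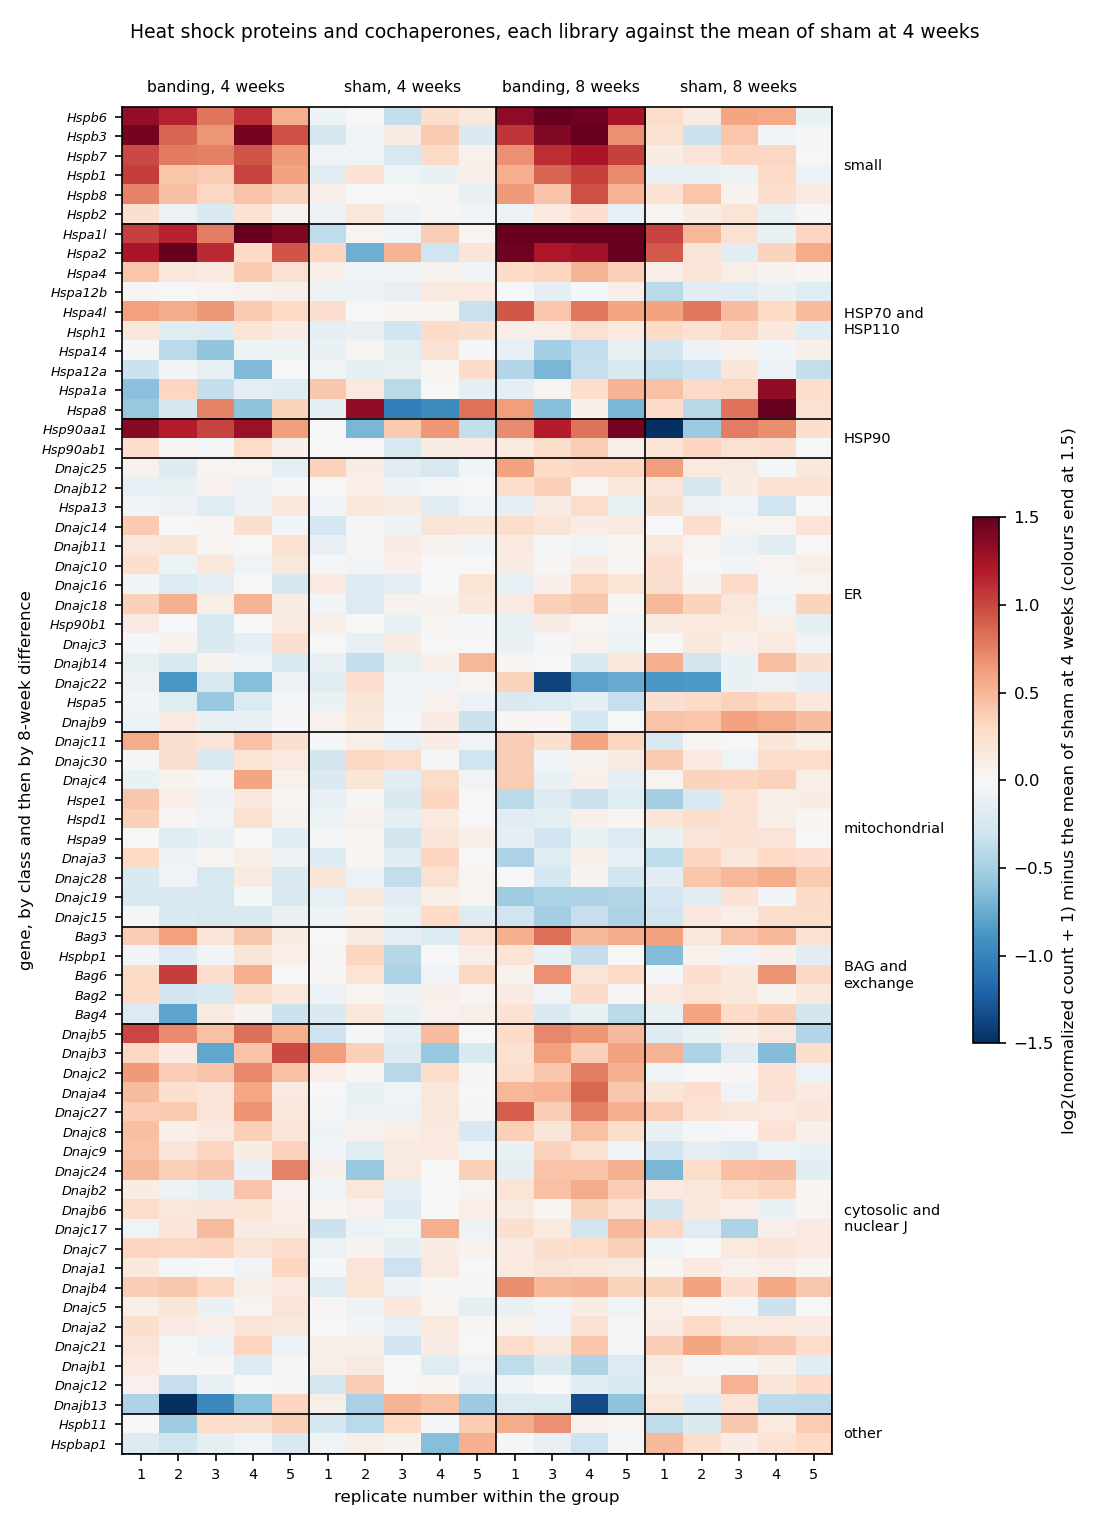
Heat map of the 69 tested members (rows, by class and then by their 8-week difference) in the 19 libraries (columns, numbered by replicate within a group), as log2(normalized count + 1) minus the mean of sham at 4 weeks; colours end at 1.5. The red block at the top is 5 of the 6 tested small heat shock proteins in both banding groups, and the pale rows in the middle are most ER members.

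The difference between the banding effect at 8 weeks and that at 4 weeks was tested as well. It was called for 0 of 69 members in limma, against 0.0275% of all identifiers (0.0275% higher and 0% lower), while 7 members had an unadjusted p under 0.05, and edgeR called 0 and DESeq2 called 1 (Dnajb9). So a call at one time and none at the other is not shown to be a change between the times. Between 8 and 4 weeks in banded ventricles, 0 of 69 members were called (1.14% of all identifiers, 0.485% higher and 0.659% lower), with 14 at an unadjusted p under 0.05 and 0 calls in both edgeR and DESeq2. Between 8 and 4 weeks in sham ventricles, 5 members rose and 0 fell (7.25%, against 6.53% of all identifiers called, of which 2.67% rose and 3.86% fell). They were Dnajb9, Dnajb4, Hspa4l, Dnajc21 and Bag3, with log2 fold changes of 0.49, 0.44, 0.53, 0.42 and 0.39. Leaving out replicate 2 of the 8-week or replicate 3 of the 4-week sham group ended the call of Dnajc21 (adjusted p of 0.0568 and 0.0637), and leaving out replicate 1, 3 or 4 of either sham group ended that of Bag3 (adjusted p of 0.0518 to 0.0739), as did quantile normalization (0.0521) and leaving out the libraries under 3 M reads (0.0676). Without the 7 libraries rich in Myl7, the sham count came to 1, Dnajb9, and without replicate 3 of sham at 4 weeks to 3, Hspa4l, Dnajb9 and Dnajb4. The sham calls over all 10926 tested identifiers came to 157 and 423 in these settings, from 714 with all libraries.

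Of the 6 tested small heat shock proteins, Hspb1, Hspb3, Hspb6, Hspb7 and Hspb8 rose at 4 weeks and at 8 weeks, and Hspb2 had no call at either time. The share that rose was 83.3% at each time, where 9.27% and 16.7% of all tested identifiers rose. The median log2 fold change of the 6 tested genes was 0.76 at 4 weeks and 0.81 at 8 weeks, where the median over all tested identifiers was 0.00034 and 0.0073. The seventh gene of the class, Hspb9, known as a testis protein, stayed at or below 4.62 normalized counts and was not tested.

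Promoter sequence was read for these genes because heat shock factors bind repeats of the letters GAA and TTC, and the windows with such repeats are shown with the repeats in capitals. Windows covered 250 bases before and 50 bases after the annotated start, from RefSeq on the rat build GRCr8, and 62 of the 78 members had one. A pair of inverted repeats was searched as GAANNTTC or TTCNNGAA on both strands.
Hspb1, chr12:26432381-26432452, minus strand: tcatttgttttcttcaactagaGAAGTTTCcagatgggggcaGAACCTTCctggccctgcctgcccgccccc
Hspb6, chr1:94934201-94934252, plus strand: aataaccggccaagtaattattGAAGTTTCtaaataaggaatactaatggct
Hspb8, chr12:45837263-45837307, plus strand: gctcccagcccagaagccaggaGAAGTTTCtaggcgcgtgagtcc
The capitals begin 129 and 109 bases before the start of Hspb1, 149 bases before that of Hspb6 and 23 bases before that of Hspb8. Hspb6 held a further pair 239 bases before its start. The same 8 letters, GAAGTTTC, stand in all 3 windows, and they or their reverse complement were found in 5 of the 62 member promoters (Bag3, Hspa9, Hspb1, Hspb6 and Hspb8) and in 1.54% of all promoters, a search chosen after the windows had been seen. The letters were taken from these windows, so the matches in Hspb1, Hspb6 and Hspb8 were fixed in advance. The member count therefore cannot be set against the share of all promoters. The pair in either form was held by 17 of the 62 members (27.4%) and by 16.7% of 27457 genes with a promoter in the table. Hspb3 and Hspb7 had no pair in their windows, though both rose. Hspb2, which had no call, was among the members without a window and was not searched. A match of letters is a description and shows no binding.

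Hspb6 (NM_138887) encodes HSP20, a muscle protein that is phosphorylated by protein kinase A. At 4 weeks, the normalized counts were 3875, 3466, 2717, 3327 and 2259 in banding and 1478, 1549.5, 1211, 1866 and 1750.4 in sham. At 8 weeks they were 3951, 4794, 4281 and 3655 in banding and 1879, 1702, 2342, 2309 and 1448 in sham. Every banded library lay above every sham library of its time. This gave a log2 fold change of 0.98 ± 0.14 at 4 weeks (SE; adjusted p = 3.5e-05, limma) and 1.12 ± 0.15 at 8 weeks (adjusted p = 6.47e-06).

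Hspb3 (NM_031750), a small heat shock protein largely restricted to muscle, had 680.2, 459, 398, 682 and 492 normalized counts in banding and 210.0, 243, 274, 329 and 216 in sham at 4 weeks. The 8-week values were 529, 658, 723 and 405 in banding and 294, 201, 334, 243 and 246 in sham. The groups did not overlap at either time, although banded libraries spread widely among themselves. The log2 fold change was 1.08 ± 0.17 at 4 weeks (adjusted p = 9.76e-05, limma) and 1.12 ± 0.18 at 8 weeks (adjusted p = 5.62e-05).

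Hspb7 (NM_031607), the cardiovascular small heat shock protein that binds actin filaments, had 7025, 6111, 5986, 6826 and 5514 normalized counts in banding and 3413, 3397, 2999, 4339 and 3719 in sham at 4 weeks. At 8 weeks it had 5715, 7619, 8262 and 7214 in banding and 3842, 4057, 4428, 4396 and 3518 in sham. Again no banded library came down to the sham range. Its log2 fold change was 0.82 ± 0.10 at 4 weeks (adjusted p = 4.56e-06, limma) and 0.82 ± 0.11 at 8 weeks (adjusted p = 4.24e-06), so the point estimates at both times were the same to the second decimal.

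Hspb1, known as HSP27 in humans, averaged 2422 ± 537 normalized counts in banding and 1474 ± 163 in sham at 4 weeks (SD, n = 5 each), and 2552 ± 359 in banding (n = 4) and 1458 ± 187 in sham (n = 5) at 8 weeks. Its log2 fold changes were 0.69 ± 0.12 and 0.81 ± 0.13 at 4 and 8 weeks (adjusted p = 0.000295 and 5.29e-05, limma). Hspb8, the partner of BAG3 in selective autophagy, averaged 3610.0 ± 464 in banding and 2625 ± 114 in sham at 4 weeks, and 4119.6 ± 701 in banding and 3048 ± 299.5 in sham at 8 weeks. Its rise was the smallest of the 5, at 0.45 ± 0.09 and 0.43 ± 0.10 (adjusted p = 0.00129 and 0.00198, limma), and the groups still did not overlap.

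Hspb2, which binds the myotonic dystrophy kinase, averaged 594 ± 79.6 in banding and 576 ± 43.8 in sham at 4 weeks, and 598 ± 76.6 in banding and 596 ± 46.4 in sham at 8 weeks. This corresponds to log2 fold changes of 0.04 and -0.00, with 95% intervals of -0.14 to 0.22 and -0.19 to 0.19, which do not reach the smallest rise among the other 5 genes. In the RefSeq annotation Hspb2 lies next to Cryab, the gene of alpha-B-crystallin, and the annotated extents of both overlap. Cryab itself, a further small heat shock protein outside the naming rule, averaged 25288 ± 4567 in banding and 16704 ± 1903 in sham at 4 weeks, and 28792 ± 4054 in banding and 21207 ± 1821 in sham at 8 weeks. It rose by 0.59 ± 0.11 and 0.44 ± 0.12 on the log2 scale (adjusted p = 0.000625 and 0.00696, limma).

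**Figure D2:**
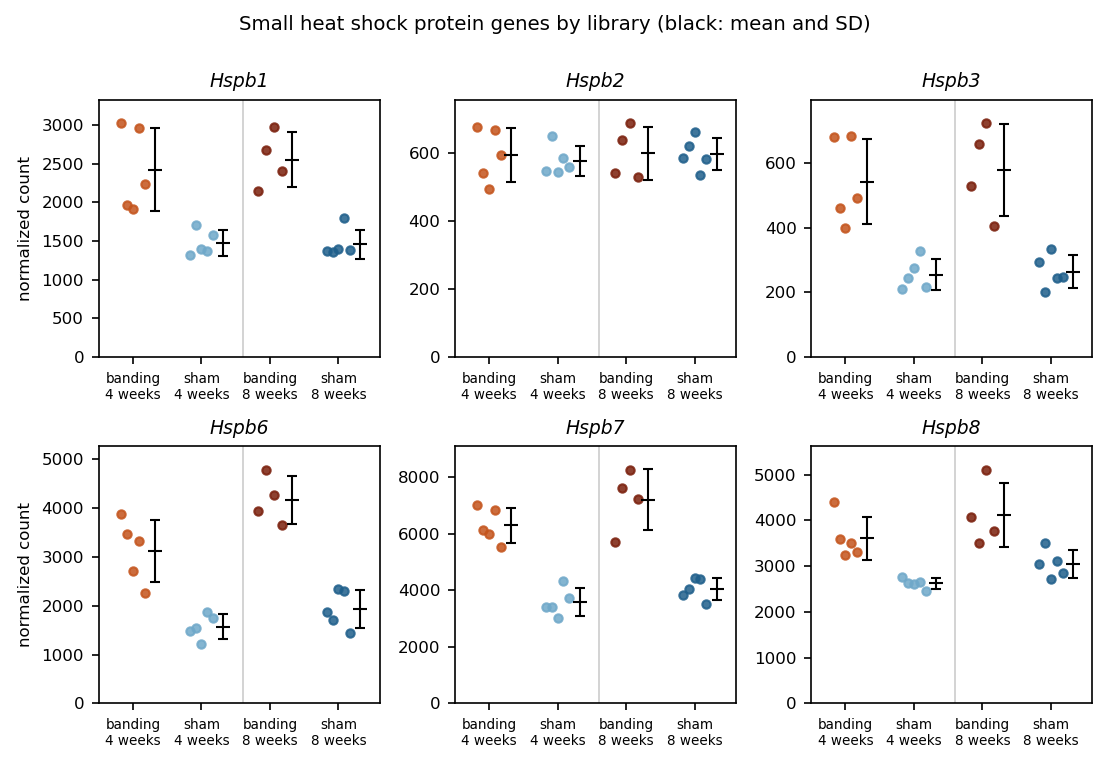
Normalized counts of the 6 tested small heat shock protein genes by library (points), with the mean and SD of each group in black, in banding and sham at 4 weeks and then at 8 weeks; each panel has its own axis from 0. In 5 panels every banded point lies above every sham point of the same time, and in the Hspb2 panel the groups overlap.

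In banding at 4 weeks, replicate 1 was highest for 4 of the 5 genes that rose, and replicate 3 was lowest for 3 of them. In banding at 8 weeks, replicate 4 was highest for 4 of the 5. The per-library median of the class, relative to the mean of sham at 4 weeks, ran from 0.52 to 1.01 on the log2 scale in banding and from -0.07 to 0.14 in sham at 4 weeks, and from 0.66 to 1.12 in banding and from -0.02 to 0.27 in sham at 8 weeks. All 5 rises passed the test at both times without the 7 libraries rich in Myl7 and when any single library was left out.

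Of 10 tested cytosolic HSP70 and HSP110 genes, 4 rose at 4 weeks (Hspa1l, Hspa2, Hspa4 and Hspa4l) and 3 at 8 weeks (Hspa1l, Hspa2 and Hspa4), and 0 fell. These rises were 40% and 30% of the class, where 9.27% and 16.7% of all tested identifiers rose. The class median was 0.03 at 4 weeks and 0.07 at 8 weeks, close to that of all identifiers. Without the 7 libraries rich in Myl7, the numbers were again 4 and 3. Calls in either direction over all 10926 tested identifiers then came to 1840 and 2553, from 2086 and 3644 with all libraries.

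Hspa1l, an HSP70 gene that in humans and mice is made mostly in the testis without stress, had a median of 48.6 normalized counts (36.9 to 75.5) in banding and 21.9 (16.1 to 27.7) in sham at 4 weeks. At 8 weeks the median was 78.8 (70.1 to 86.9) in banding and 26.8 (19.8 to 43.96) in sham. No banded library reached down to the sham range of its time. The log2 fold changes were 1.23 ± 0.21 and 1.44 ± 0.22 (adjusted p = 0.000179 and 2.63e-05, limma), the largest of any called member at both times. The annotated extents of Hspa1l and Hspa1a overlap, and without a stated strand setting reads of both cannot be told apart there. Hspa1a, the stress-inducible HSP70, averaged 43.5 ± 11.2 in banding and 49.8 ± 10.8 in sham at 4 weeks, and 55.8 ± 11.4 in banding and 74.2 ± 28.1 in sham at 8 weeks. Its log2 fold changes of -0.20 ± 0.21 and -0.36 ± 0.23 did not pass the test (adjusted p = 0.579 and 0.233, limma). Hspa1b, its near-identical neighbour, stayed at or below 8.11 normalized counts and was not tested, and reads that fit both copies make both values uncertain.

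Hspa2, a further HSP70 gene best known from the testis, had a median of 55.4 (30.8 to 91.6) in banding and 28.6 (14.6 to 35.9) in sham at 4 weeks. At 8 weeks the median was 65.4 (58.8 to 82.2) in banding and 31.6 (22.04 to 47.8) in sham. The libraries overlapped at 4 weeks and did not at 8 weeks. These amount to log2 fold changes of 1.08 ± 0.26 and 1.04 ± 0.28 (adjusted p = 0.00491 and 0.00602, limma).

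Hspa4 (NM_153629), an HSP110-type exchange factor for HSP70, had 2657, 2246, 2200.4, 2624 and 2330.4 normalized counts in banding and 2139, 1914, 1928, 2077 and 1928 in sham at 4 weeks. By 8 weeks the counts were 2459, 2497, 2834 and 2556 in banding and 2143, 2293, 2125, 2069 and 2029 in sham. The groups were close but did not overlap at either time. As log2 fold changes these were 0.27 ± 0.06 and 0.28 ± 0.07 (adjusted p = 0.00456 and 0.00302, limma). Its relative Hspa4l (NM_001106428) had 242, 233, 248, 208 and 195 in banding and 189, 157, 162, 163 and 126 in sham at 4 weeks, and 302, 212, 273 and 239 in banding and 241, 274, 218, 195 and 221 in sham at 8 weeks. At 4 weeks the groups did not overlap, and at 8 weeks they did. On the log2 scale the difference was 0.50 ± 0.12 at 4 weeks (adjusted p = 0.00342, limma) and 0.16 ± 0.12 at 8 weeks (adjusted p = 0.354), while the sham value at 8 weeks was 0.53 higher on the log2 scale than at 4 weeks (adjusted p = 0.00856; 0.139 with the Myl7-rich libraries left out). The difference between both banding effects was -0.35 ± 0.17 and did not pass the test (adjusted p = 0.431).

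Hsph1, the heat-inducible HSP105, averaged 569.8 ± 76.2 in banding and 564 ± 102 in sham at 4 weeks, and 615 ± 25.2 in banding and 629 ± 78.5 in sham at 8 weeks. Its log2 fold changes were 0.02 and -0.02, with 95% intervals of -0.20 to 0.24 and -0.26 to 0.21. Hspa8, the constitutive HSC70, averaged 14.2 ± 6.56 in banding and 17.5 ± 13.1 in sham at 4 weeks, and 13.4 ± 6.46 in banding and 22.2 ± 12.2 in sham at 8 weeks. RefSeq names 33 pseudogenes of Hspa8, so its low counts are uncertain, and its log2 fold changes of -0.07 ± 0.45 and -0.64 ± 0.47 have wide errors. Hspa12a, Hspa12b and Hspa14 had no call at either time, with log2 fold changes between -0.24 and 0.18.

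The stricter heat shock element has 3 units, GAA and TTC in turn with 2 free bases between units, starting with either unit, and was searched on both strands. Any such match also holds the pair searched above. It was found in 5 of the 62 member promoters (8.06%: Dnaja1, Hspa8, Hspd1, Hspe1 and Hsph1) and in 0.794% of all genes. Examples are shown because no gene of this set was called at either time, with the element in capitals.
Hsph1, chr12:10427310-10427366, plus strand: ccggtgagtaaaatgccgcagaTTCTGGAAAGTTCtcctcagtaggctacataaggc
Hspe1, chr9:64084240-64084301, plus strand: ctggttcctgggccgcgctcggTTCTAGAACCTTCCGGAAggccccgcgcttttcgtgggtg
The element starts 36 bases before the start of Hsph1 and 65 bases before that of Hspe1, where overlapping matches in both forms make 1 longer run. For Dnaja1, a J protein partner of HSP70, the log2 fold changes were 0.08 and 0.09, with 95% intervals of -0.09 to 0.24 and -0.08 to 0.27. Heat shock factor 1 itself (Hsf1) averaged 191 ± 16.1 in banding and 206 ± 25.2 in sham at 4 weeks, and 186 ± 14.04 in banding and 209.7 ± 30.3 in sham at 8 weeks. Its differences of -0.10 ± 0.10 and -0.16 ± 0.11 did not pass the test (adjusted p = 0.571 and 0.273, limma). Of the 4 heat shock factor genes and regulators, 1 rose at 4 weeks, Hsbp1, a binding partner of heat shock factor 1 (0.25 ± 0.07, adjusted p = 0.0102), and 0 were called at 8 weeks. Over all tested identifiers, 9.27% rose at 4 weeks and 33.4% were called at 8 weeks.

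The cytosolic HSP90 genes had no call. Hsp90ab1, the constitutive form, averaged 4279 ± 399 in banding and 3935 ± 380.3 in sham at 4 weeks, and 4582 ± 418 in banding and 4532 ± 359.7 in sham at 8 weeks. This corresponds to log2 fold changes of 0.12 and 0.02, with 95% intervals of -0.04 to 0.28 and -0.15 to 0.19. Hsp90aa1, the inducible form, had 13.2, 11.4, 10.1, 12.5 and 7.49 in banding and 4.47, 2.43, 6.25, 7.64 and 3.30 in sham at 4 weeks, and 8.01, 11.5, 8.69 and 13.9 in banding and 0, 2.77, 8.40, 7.90 and 5.51 in sham at 8 weeks. These are a few reads a library: it reached 10 in 6 banded and 0 sham libraries, so it entered the test through the banded libraries alone. Its log2 fold changes of 1.09 ± 0.49 and 1.29 ± 0.52 had no call in limma (adjusted p = 0.127 and 0.0575), while edgeR and DESeq2 called it at 4 weeks (adjusted p of 0.0466 and 0.0431). RefSeq names 16 pseudogenes of Hsp90aa1 and 23 of Hsp90ab1, which makes both uncertain.

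Among 20 tested J proteins of the cytosol and nucleus, 7 rose and 0 fell at 4 weeks, and 5 rose and 2 fell at 8 weeks. The rises were 35% at 4 weeks and 25% at 8 weeks, where 9.27% and 16.7% of all tested identifiers rose. The falls at 8 weeks were 10%, where 16.6% of all tested identifiers fell. Those that rose at both times were Dnajb5, Dnajc2, Dnajc27 and Dnaja4. The class median was 0.20 at 4 weeks and 0.19 at 8 weeks, where that of all identifiers was 0.00034 and 0.0073. Without the 7 libraries rich in Myl7, the counts came to 2 higher at 4 weeks, and to 2 higher and 1 lower at 8 weeks. Calls in either direction over all 10926 tested identifiers then came to 1840 at 4 weeks and 2553 at 8 weeks, from 2086 and 3644 with all libraries.

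Dnajb5 (NM_001108004), a type B J protein also called HSC40, had 759, 617, 510.2, 669 and 549.6 normalized counts in banding and 304, 368, 342, 526 and 379 in sham at 4 weeks. The 8-week values were 459, 621, 595 and 527 in banding and 329, 349.9, 397, 425 and 279 in sham. The groups overlapped at 4 weeks and did not at 8 weeks. The log2 fold changes were 0.70 ± 0.14 and 0.63 ± 0.14 (adjusted p = 0.000695 and 0.00165, limma), and without the libraries rich in Myl7 the 8-week value was 0.35 (adjusted p = 0.16).

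Dnajc2 (NM_053776), which works at the ribosome on emerging protein chains, had 325, 270.4, 281, 347 and 284 in banding and 224, 213, 156, 253 and 212 in sham at 4 weeks. At 8 weeks it had 252, 277, 356 and 304 in banding and 201, 208, 213, 244 and 197 in sham. No banded library fell into the sham range of its time. These amount to log2 fold changes of 0.52 ± 0.11 and 0.47 ± 0.12 (adjusted p = 0.00241 and 0.00421, limma), with 0.40 at 8 weeks without the libraries rich in Myl7 (adjusted p = 0.0615). Hspa14, its HSP70 partner at the ribosome in humans, had -0.24 ± 0.12 and -0.22 ± 0.13 (adjusted p = 0.18 and 0.182), with no call.

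Dnaja4 (NM_001025411), a type A J protein, had 754, 642, 623, 815 and 604 in banding and 546, 505, 518, 609 and 546 in sham at 4 weeks, and 767, 778, 992 and 722 in banding and 619, 647, 526, 632 and 596 in sham at 8 weeks. Banded libraries overlapped sham at 4 weeks and lay above it at 8 weeks. As log2 fold changes these were 0.33 ± 0.09 and 0.42 ± 0.10 (adjusted p = 0.0151 and 0.00197, limma), and the 4-week call was lost without replicate 4 of banding at 4 weeks (adjusted p = 0.0528) and without the libraries rich in Myl7 (adjusted p = 0.0867). Dnajc27 (NM_206845), a small GTPase that carries a J domain, had 358, 362, 314, 439.8 and 309 in banding and 272, 259, 259, 309.5 and 277 in sham at 4 weeks, and 513, 355, 466 and 401 in banding and 359, 319, 309.6, 304 and 313 in sham at 8 weeks. The groups overlapped at both times, and the log2 fold changes were 0.36 ± 0.10 and 0.42 ± 0.11 (adjusted p = 0.0133 and 0.00379, limma; 0.0862 at 4 weeks without the libraries rich in Myl7).

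The other calls of this class were small in size. Dnajc7, a J protein that binds both HSP70 and HSP90, rose by 0.28 ± 0.07 on the log2 scale at 4 weeks (adjusted p = 0.00424, limma; 0.0802 without the libraries rich in Myl7), without overlap, and had 0.16 ± 0.07 at 8 weeks without a call. Dnajc9, a histone chaperone, rose by 0.28 ± 0.10 at 4 weeks (adjusted p = 0.0497), a call at the edge of the threshold that was lost with a pseudocount of 5 (adjusted p = 0.0501), without the filter on low values (0.0587), with TMM (0.059), in a robust fit (0.0543), with only the groups compared (0.0579), with the atrial score as covariate (0.0517) and without the libraries rich in Myl7 (0.0777). It was also lost when 1 library was left out (adjusted p of 0.0507 to 0.139), unless that was replicate 1 or 3 of banding at 8 weeks, replicate 4 of banding at 4 weeks, replicate 1 of sham at 8 weeks or replicate 3 or 4 of sham at 4 weeks. Dnajb4 rose by 0.27 ± 0.09 at 4 weeks (adjusted p = 0.0434), a call lost without replicate 4 of banding at 8 weeks, replicate 1, 2 or 3 of banding at 4 weeks, replicate 5 of sham at 8 weeks or replicate 1, 3, 4 or 5 of sham at 4 weeks (adjusted p of 0.0501 to 0.12). Without the libraries rich in Myl7 the value was 0.15 (adjusted p = 0.411), and the call was also missed without the filter (0.0529) and with only the groups compared (0.0552). Its sham level was 0.44 higher on the log2 scale at 8 than at 4 weeks (adjusted p = 0.00612; 0.25 with the Myl7-rich libraries left out). Dnajc8, a spliceosome-associated J protein, rose at 8 weeks by 0.27 ± 0.09 (adjusted p = 0.0291), a call lost when replicate 1 or 4 of banding or replicate 1, 2 or 3 of sham at 8 weeks was left out (adjusted p of 0.0532 to 0.0949), without the libraries rich in Myl7 (0.23, adjusted p = 0.212) and without those under 3 M reads (0.22, adjusted p = 0.126).

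The J proteins that fell at 8 weeks were Dnajb1 and Dnajc12. Dnajb1 (NM_001108441), the heat-inducible HSP40 that works with HSP70, had 148, 166, 141 and 168 normalized counts in banding and 212, 197, 196, 204 and 173 in sham at 8 weeks. No banded library reached the sham range. This gave a log2 fold change of -0.33 ± 0.09 (adjusted p = 0.00921, limma), with -0.01 at 4 weeks (192 in banding and 194 in sham on average), and the 8-week call was missed without the libraries rich in Myl7 (-0.39, adjusted p = 0.0516) and without those under 3 M reads (-0.28, adjusted p = 0.0533). Dnajc12 (NM_001034032), which in humans assists the aromatic amino acid hydroxylases, had 134, 139, 122 and 117 in banding and 147, 147, 199, 157 and 169 in sham at 8 weeks. These did not overlap, and the log2 fold change was -0.34 ± 0.12 (adjusted p = 0.0366, limma). The Dnajc12 call was lost when replicate 4 or 5 of banding or replicate 3 or 5 of sham at 8 weeks was left out (adjusted p of 0.0658 to 0.109).

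Of 5 tested BAG and exchange factor genes, 1 rose at 4 weeks and 0 were called at 8 weeks, and Bag1 and Bag5 were not tested. Over all tested identifiers, 9.27% rose at 4 weeks and 33.4% were called at 8 weeks. Bag3 (NM_001011936), which joins HSP70 to HSPB8 and directs damaged Z-disc proteins to autophagy, had 900.1, 1067, 799.9, 921 and 751 normalized counts in banding and 697, 757, 633, 606 and 815 in sham at 4 weeks. By 8 weeks the counts were 1009, 1237, 977 and 1028 in banding and 1061, 783, 939, 983 and 818 in sham. The groups overlapped at both times. The log2 fold change was 0.34 ± 0.10 at 4 weeks (adjusted p = 0.024, limma) and 0.22 ± 0.11 at 8 weeks (adjusted p = 0.138), and sham ventricles were 0.39 ± 0.10 higher at 8 than at 4 weeks (adjusted p = 0.0268). The 4-week call was lost without replicate 2 or 4 of banding or replicate 3 or 4 of sham at 4 weeks (adjusted p of 0.0527 to 0.0806) and without the libraries rich in Myl7 (adjusted p = 0.145). Bag2, an inhibitor of the ubiquitin ligase CHIP, had 0.05 and -0.05, with 95% intervals of -0.15 to 0.24 and -0.26 to 0.16. Bag4, Bag6 and Hspbp1 had no call at either time.

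**Figure D3:**
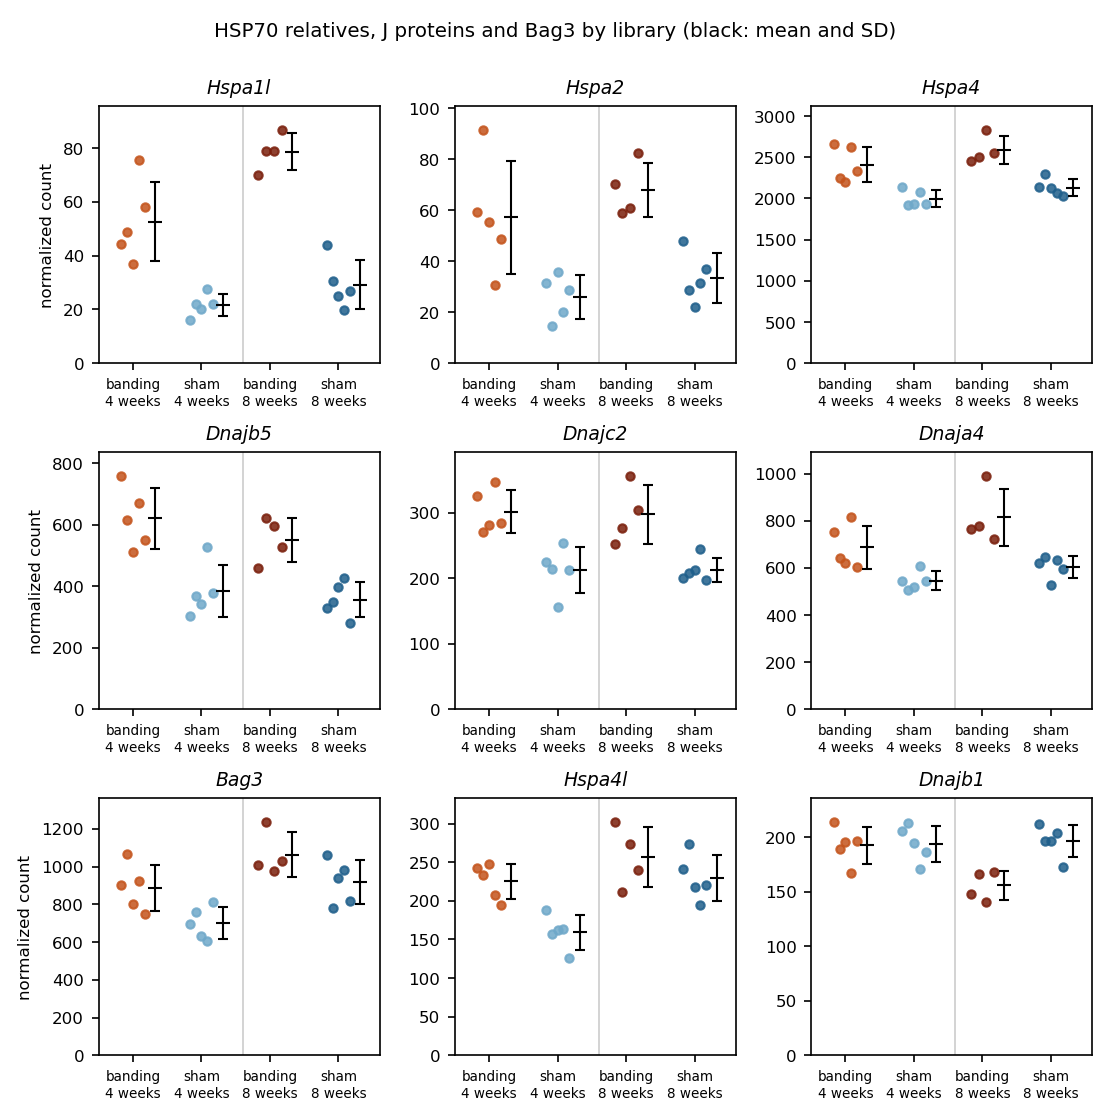
Normalized counts by library (points) with the group mean and SD in black for HSP70 relatives, J proteins and Bag3, in banding and sham at 4 weeks and then at 8 weeks; each panel has its own axis from 0. Hspa1l and Dnajc2 show banded points above all sham points of the same time, and in the Hspa4l and Bag3 panels the sham points at 8 weeks lie near the banded ones.

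Genes that work beside BAG3 in chaperone-assisted autophagy were read from a list of 5, all tested, of which 3 rose at both times and 1 fell at 8 weeks. Over all tested identifiers, 9.27% rose at 4 weeks, and 16.7% rose and 16.6% fell at 8 weeks. Flnc, filamin C, the Z-disc client of this pathway, averaged 9317 ± 1289 in banding and 4809 ± 334 in sham at 4 weeks, and 11162 ± 2435 in banding and 4408 ± 248 in sham at 8 weeks. It rose by 0.95 ± 0.11 and 1.31 ± 0.12 on the log2 scale (adjusted p = 2.01e-06 and 1.93e-08, limma). Synpo2, the adaptor synaptopodin 2, rose by 0.45 ± 0.11 and 0.55 ± 0.12, and Sqstm1, the autophagy receptor p62, by 0.55 ± 0.10 and 0.39 ± 0.11. Wipi1, an early autophagy protein, fell at 8 weeks (-0.38 ± 0.09, adjusted p = 0.00308).

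The 20 HSP70 and HSP90 cochaperones outside the naming rule were all tested, and 1 rose and 1 fell at 4 weeks, while 0 rose and 6 fell at 8 weeks, with a median of -0.16 at 8 weeks. Of all tested identifiers, 9.27% rose and 9.82% fell at 4 weeks, and 16.7% rose and 16.6% fell at 8 weeks. Fkbp4, the HSP90 immunophilin of steroid receptor complexes, averaged 1476 ± 190.3 in banding and 2862 ± 274 in sham at 4 weeks, and 1305 ± 108 in banding and 3158 ± 143 in sham at 8 weeks. It fell by 0.96 and by 1.28 on the log2 scale (adjusted p = 2.95e-08 and 5.74e-10, limma). Others that fell at 8 weeks were Ppp5c, a phosphatase bound to HSP90 (-0.46), the kinase-loading cochaperone Cdc37 (-0.37) and its relative Cdc37l1 (-0.33). Unc45b, the myosin chaperone of muscle, rose at 4 weeks (0.23 ± 0.07, adjusted p = 0.0268). Of 11 tested genes of the TRiC and prefoldin complexes, which fold actin and tubulin, 2 rose at 4 weeks (Cct3 and Pfdn1), and at 8 weeks 1 rose (Pfdn1, 0.51) and 1 fell (Cct4, -0.18).

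Of 14 tested ER members, 0 were called at 4 weeks in limma and edgeR (2 at an unadjusted p under 0.05, 1 in DESeq2, Dnajc18), and at 8 weeks 0 rose and 2 fell, Hspa5 and Dnajb9. The falls were 14.3% of the class, near the 16.6% of all tested identifiers that fell at 8 weeks. At 4 weeks 19.1% of all tested identifiers were called. The class median was -0.04 at 4 weeks and -0.01 at 8 weeks. Both falls also passed the test without the 7 libraries rich in Myl7.

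The ER stress element, searched as CCAAT, 9 free bases and CCACG on both strands, was held by 3 of the 62 member promoters (4.84%) and by 0.0765% of all genes. Its windows are shown for these 3 genes, 1 of which fell at 8 weeks, with the element in capitals.
Hspa5, chr3:38452951-38453013, plus strand: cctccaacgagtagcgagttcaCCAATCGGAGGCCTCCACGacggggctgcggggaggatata
Hsp90b1, chr7:23012429-23012491, minus strand: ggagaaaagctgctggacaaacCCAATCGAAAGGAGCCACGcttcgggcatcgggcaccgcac
Dnajc3, chr15:102432512-102432574, plus strand: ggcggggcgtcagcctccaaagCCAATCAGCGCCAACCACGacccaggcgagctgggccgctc
The element starts 43 bases before the start of Hspa5, 176 bases before that of Hsp90b1, which has a further copy in the other direction, and 133 bases before that of Dnajc3. Dnajb9, which fell as well, had no match in its window.

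Hspa5 (NM_013083) encodes BiP, the HSP70 of the ER. At 4 weeks it had 4055, 3671, 2818, 3616 and 4092 normalized counts in banding and 3886, 4726, 4002, 4347 and 3923 in sham. The 8-week values were 3577, 3607, 3755 and 3270.3 in banding and 4910.1, 5093, 5282, 5103 and 4637 in sham. At 4 weeks the groups overlapped, and at 8 weeks all banded libraries lay below all sham libraries. On the log2 scale the difference was -0.20 ± 0.08 at 4 weeks (adjusted p = 0.1, limma) and -0.49 ± 0.09 at 8 weeks (adjusted p = 0.000174). Within banding, Hspa5 averaged 3552 at 8 weeks and 3650.1 at 4 weeks, and within sham 5005 at 8 weeks and 4177 at 4 weeks. The sham difference between times was 0.26 ± 0.08 (adjusted p = 0.0622) and the difference between both banding effects -0.29 ± 0.12 (adjusted p = 0.364), neither of which passed.

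Dnajb9 (NM_012699), the J protein ERdj4 that works with BiP and that the unfolded protein response induces, had 249.5, 292, 246, 246 and 259 in banding and 277, 295, 260.1, 288 and 211 in sham at 4 weeks. At 8 weeks it had 268, 269, 219.8 and 264 in banding and 357, 354, 401, 389 and 366 in sham. The pattern was that of Hspa5, with overlap at 4 weeks and none at 8 weeks. This gave a log2 fold change of -0.03 ± 0.09 at 4 weeks (adjusted p = 0.84, limma) and -0.55 ± 0.09 at 8 weeks (adjusted p = 9.85e-05). Sham ventricles were 0.49 ± 0.09 higher at 8 than at 4 weeks (adjusted p = 0.0018), and banded ventricles averaged 255 at 8 weeks and 259 at 4 weeks. The difference between both banding effects was -0.51 ± 0.13, which missed the threshold in limma (adjusted p = 0.118) and edgeR (adjusted p = 0.109) and passed it in DESeq2 (adjusted p = 0.0368). A locus without a gene name in the RefSeq annotation overlaps Dnajb9, and reads of both could not be told apart without strand.

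The remaining ER members had no call in either comparison. Hsp90b1, which encodes GRP94, averaged 2306 ± 239 in banding and 2294 ± 107 in sham at 4 weeks, and 2291 ± 159 in banding and 2427 ± 191 in sham at 8 weeks. Its log2 fold changes were 0.00 and -0.08, with 95% intervals of -0.14 to 0.15 and -0.24 to 0.07, and the 8-week interval does not reach the fall of Hspa5. Dnajb11, the ER J protein ERdj3, had 0.13 and 0.04, Dnajc3, the inhibitor of the kinase PERK and cochaperone of BiP, had -0.02 and -0.10, and Hspa13, an HSP70-like microsomal protein, had -0.05 and 0.07. The widest values were those of Dnajc22, with -0.39 ± 0.26 and -0.24 ± 0.28, at a mean of 35.02 normalized counts over all libraries.

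Of 17 tested genes of a list of other ER folding and degradation genes, 1 rose and 0 fell at 4 weeks, and 1 rose and 2 fell at 8 weeks. Over all tested identifiers, 9.27% rose and 9.82% fell at 4 weeks, and 16.7% rose and 16.6% fell at 8 weeks. Herpud1, an ER-associated degradation protein, averaged 949 ± 142 in banding and 1455 ± 191 in sham at 8 weeks (-0.62 ± 0.13, adjusted p = 0.000801, limma). Sil1, the exchange factor of BiP, fell by 0.31 at 8 weeks (adjusted p = 0.0431), and Canx, the lectin chaperone calnexin, rose by 0.19 and 0.15 at 4 and 8 weeks. Among 9 tested regulators of the unfolded protein response, 0 were called at 4 weeks and 1 fell at 8 weeks, Ern1, the ER stress sensor IRE1 (-0.40 ± 0.15, adjusted p = 0.0413).

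Mitochondrial members made up 4 of the 8 members that fell at 8 weeks, and all 10 members of the class were tested. The falls were 40% of the class, where 16.6% of all tested identifiers and 11.6% of all tested members fell at 8 weeks. At 4 weeks 1 rose (Dnajc11) and 0 fell, and at 8 weeks 1 rose (Dnajc11) and 4 fell (Dnajc15, Dnajc19, Dnajc28 and Hspa9), with 9 of 10 log2 fold changes below 0. Of all tested identifiers, 9.27% rose and 9.82% fell at 4 weeks, and 16.7% rose at 8 weeks. The share of all identifiers with a log2 fold change below 0 was not counted. The class median was 0.06 at 4 weeks and -0.25 at 8 weeks, where that of all identifiers was 0.00034 and 0.0073. Without the 7 libraries rich in Myl7 the 8-week counts were 0 higher and 5 lower. Calls in either direction over all 10926 tested identifiers then came to 2553 at 8 weeks, from 3644 with all libraries. The summed ventricular cardiomyocyte markers at 8 weeks ran from 444098 to 509099 in banding and from 506628 to 592090 in sham. The markers in this sum moved both ways. Their 8-week log2 fold changes were 3.22 for Myh7, 0.32 for Actc1 and 0.13 for Myl2. They were -1.30 for Myh6, -0.84 for Tnni3, -0.22 for Tnnt2 and -0.18 for Myl3. The sum is therefore no plain measure of cardiomyocyte content, and the part of these markers in the mitochondrial falls was not tested.

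Hspa9, Dnajc15 and Dnajc19 belong to the motor that pulls proteins into the mitochondrial matrix. Dnajc15 (NM_001106050) had 737, 651, 637, 648 and 702 normalized counts in banding and 715, 798, 698, 931 and 658 in sham at 4 weeks. By 8 weeks the counts were 613, 527, 594 and 549 in banding and 612, 849, 809, 904 and 909.9 in sham. Replicate 1 of sham at 8 weeks, a shallow library rich in Myl7, reached the banded range, and the other 4 sham libraries lay above it. The log2 fold change was -0.16 ± 0.10 at 4 weeks (adjusted p = 0.29, limma) and -0.50 ± 0.11 at 8 weeks (adjusted p = 0.000782).

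Dnajc19 (NM_001134640), loss of which causes a dilated cardiomyopathy syndrome in humans, had 255, 255, 254, 295 and 258 in banding and 275, 333, 268, 319 and 308 in sham at 4 weeks. The 8-week values were 206, 215, 216 and 221 in banding and 248, 267, 349, 291 and 366 in sham. The banded libraries at 8 weeks were tightly grouped and all lay below sham. On the log2 scale the difference was -0.19 ± 0.10 at 4 weeks (adjusted p = 0.193, limma) and -0.49 ± 0.10 at 8 weeks (adjusted p = 0.000792). Hspa9, mortalin, the HSP70 of the matrix, averaged 2644 ± 161 in banding and 2822 ± 321 in sham at 4 weeks, and 2474 ± 144 in banding and 3017 ± 293 in sham at 8 weeks. Its log2 fold change was -0.09 ± 0.08 at 4 weeks (adjusted p = 0.499, limma) and -0.28 ± 0.08 at 8 weeks (adjusted p = 0.0129).

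Dnajc28 (NM_001014124), a little studied J protein, had 184, 153, 192 and 152 in banding and 164, 247, 261, 271 and 243 in sham at 8 weeks, and averaged 171 ± 20.03 in banding and 187 ± 29.7 in sham at 4 weeks. Again replicate 1 of sham at 8 weeks lay among the banded libraries and the other 4 above them. The log2 fold change at 8 weeks was -0.46 ± 0.14 (adjusted p = 0.0141, limma), a call missed without replicate 5 of banding at 8 weeks (-0.41, adjusted p = 0.0511). Dnajc11 (NM_001108694), which is bound to the complex that shapes the cristae, had 759, 609, 589.5, 701 and 618 in banding and 512, 549.7, 475, 557 and 497 in sham at 4 weeks, and 673, 612, 778 and 646 in banding and 439.6, 523, 517, 588 and 555 in sham at 8 weeks. It did not overlap at either time, with 0.33 ± 0.09 and 0.37 ± 0.09 on the log2 scale (adjusted p = 0.00835 and 0.00348, limma; 0.0512 at 8 weeks without the libraries rich in Myl7).

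Hspd1 and Hspe1, which encode the chaperonin HSP60 and its lid HSP10, lie next to each other with 290 bases between their starts in the RefSeq annotation, on opposite strands, so that the element shown above for Hspe1 lies in the windows of both. Hspd1 averaged 669.5 ± 82.1 in banding and 614 ± 46.9 in sham at 4 weeks, and 592 ± 52.7 in banding and 684 ± 44.5 in sham at 8 weeks. Hspe1 averaged 289.8 ± 38.02 in banding and 267 ± 39.4 in sham at 4 weeks, and 219 ± 15.7 in banding and 256 ± 50.4 in sham at 8 weeks. The log2 fold changes of both were 0.12 at 4 weeks and -0.21 at 8 weeks. None passed the test, with an adjusted p at 8 weeks of 0.0657 for Hspd1 and 0.248 for Hspe1 (limma). RefSeq names 20 pseudogenes of Hspd1, which leaves its counts uncertain. Dnaja3, the matrix J protein Tid1, had 0.05 ± 0.13 and -0.30 ± 0.14 (adjusted p = 0.0994 at 8 weeks), and Dnajc4 and Dnajc30 had no call.

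**Figure D4:**
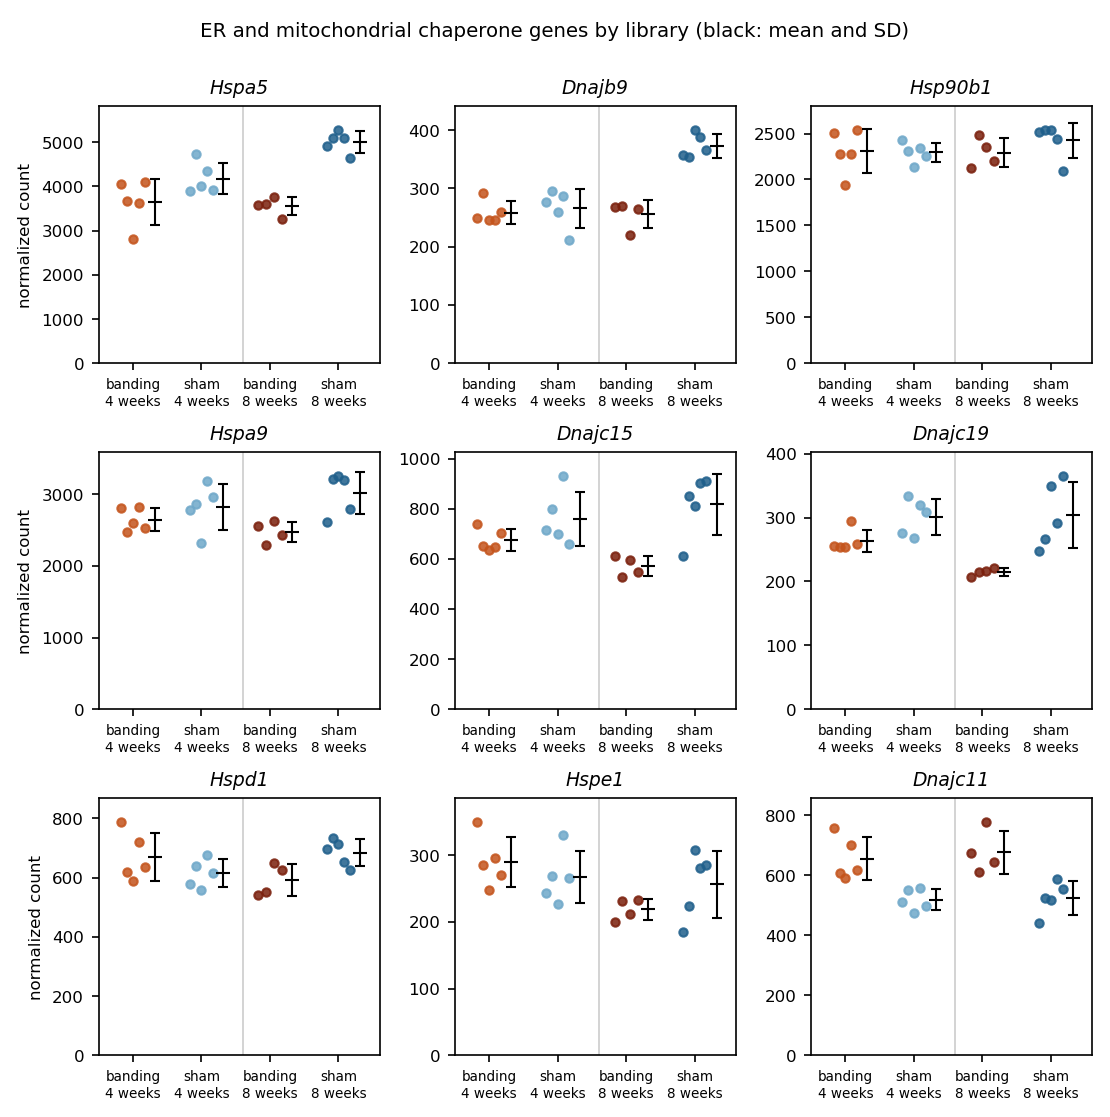
Normalized counts by library (points) with the group mean and SD in black for ER genes (Hspa5, Dnajb9, Hsp90b1) and mitochondrial genes (the other 6 panels), in banding and sham at 4 weeks and then at 8 weeks; each panel has its own axis from 0. For Dnajb9 every sham point at 8 weeks stands above the 3 other groups, for Hspa5 above both banding groups, and for Dnajc15 and Dnajc19 the banded points at 8 weeks are the lowest group.

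A list of 11 tested mitochondrial folding and protease genes outside the naming rule had 1 higher and 2 lower at 4 weeks, and 0 higher and 4 lower at 8 weeks. All tested identifiers had 9.27% higher and 9.82% lower at 4 weeks, and 16.7% higher and 16.6% lower at 8 weeks. Clpx, the unfoldase of the matrix protease ClpXP, averaged 1045 ± 64.8 in banding and 1294 ± 107 in sham at 4 weeks, and 910.0 ± 114 in banding and 1515 ± 113 in sham at 8 weeks. It fell by 0.31 and by 0.74 on the log2 scale (adjusted p = 0.00804 and 5.05e-07, limma). Grpel1, the exchange factor of mortalin, fell at 8 weeks (-0.42 ± 0.09, adjusted p = 0.000904), Clpb, a disaggregase, fell at both times (-0.33 and -0.39), and Afg3l2 fell at 8 weeks (-0.19). Spg7, its partner in the inner membrane protease, rose at 4 weeks (0.32 ± 0.09, adjusted p = 0.0185).

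The class medians of the log2 fold change at 4 weeks were 0.76 for small heat shock proteins, 0.20 for cytosolic and nuclear J proteins, 0.06 for mitochondrial members, 0.05 for BAG and exchange factors, 0.03 for HSP70 and HSP110 and -0.04 for ER members. At 8 weeks they were 0.81, 0.19, -0.25, 0.03, 0.07 and -0.01 in the same order of classes. The 2 HSP90 genes are given singly above and not as a median, since Hsp90aa1 entered the test through banded libraries alone. No test was run between classes, since the members of a class are not replicates.

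**Figure D5:**
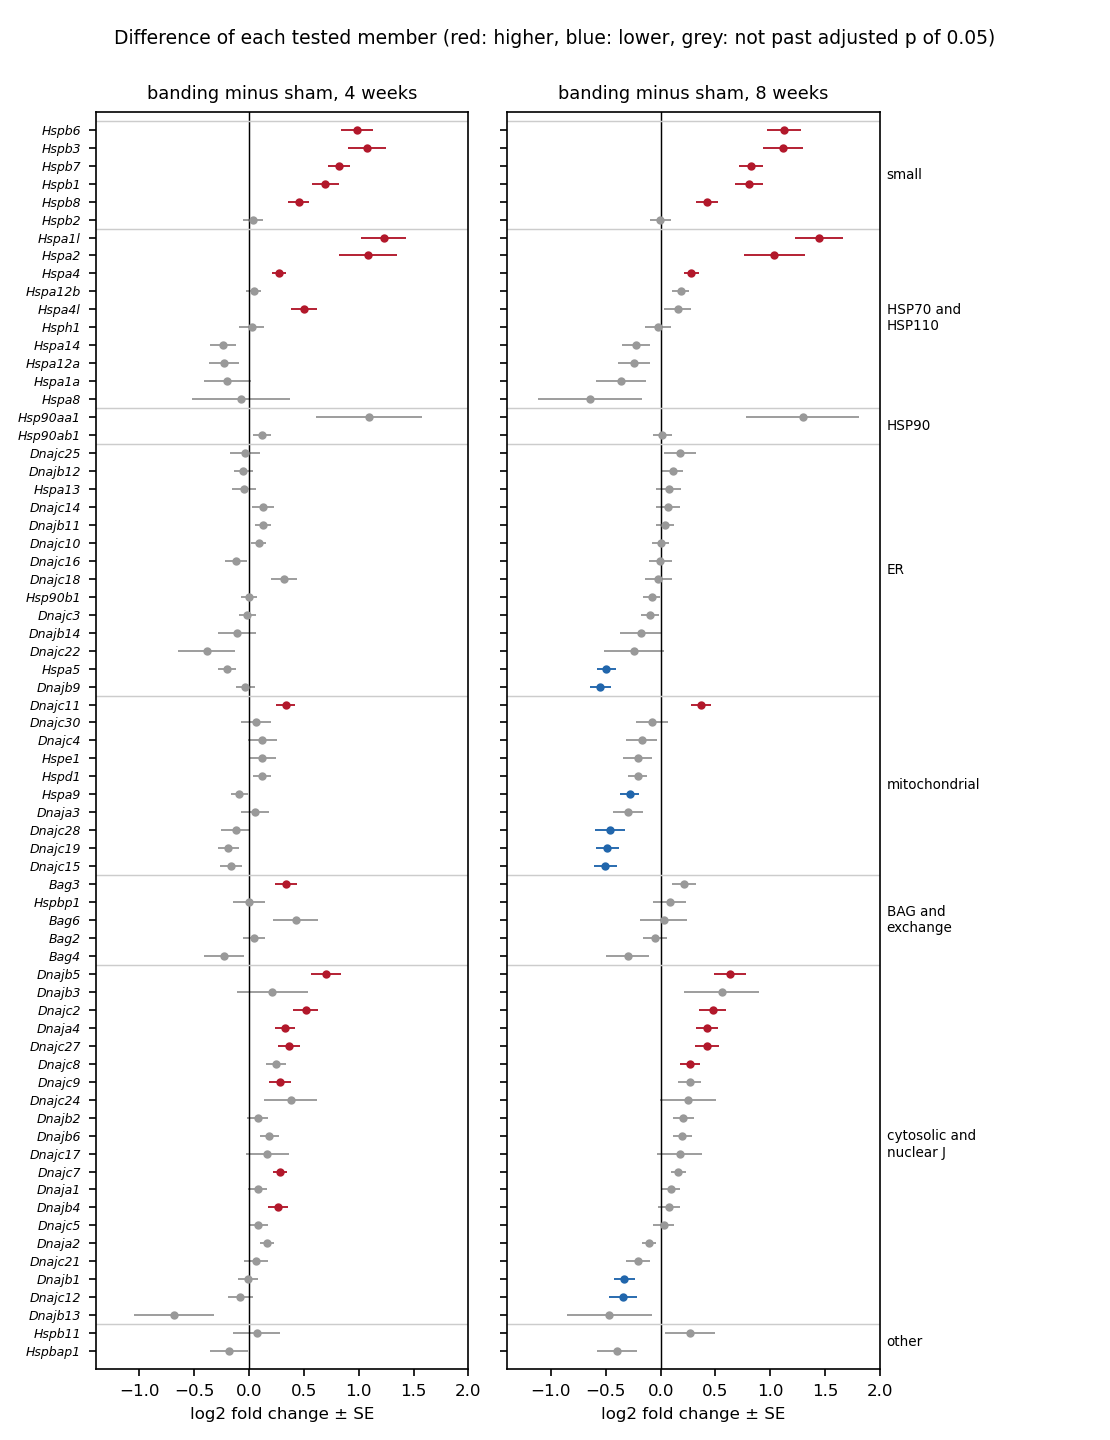
Log2 fold change of banding over sham ± SE for the 69 tested members by class, at 4 weeks (left) and 8 weeks (right); red is higher and blue lower at an adjusted p under 0.05, grey is not called. The left panel holds 18 red and 0 blue points and the right panel 14 red and 8 blue points, and 4 of the 8 blue ones are mitochondrial members.

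The members outside these classes were Hspb11, a ciliary transport protein despite its name, and Hspbap1, an HSPB1-associated protein. Their log2 fold changes were 0.07 ± 0.22 and 0.27 ± 0.23 for Hspb11, and -0.19 ± 0.17 and -0.40 ± 0.18 for Hspbap1, with no call. The 9 members that were not tested were Hspb9, Hspa1b, Bag1, Bag5, Dnajb7, Dnajb8, Dnajc5b, Dnajc5g and Dnajc6. Bag1 and Dnajb8 were listed at 0 in all 19 libraries, and the highest value among the other 7 was 9.56 normalized counts, in Dnajb7.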

How the data were processed

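Per the labels' protocols, right ventricles were snap frozen, RNA was extracted with Trizol and libraries were made from 800 ng with a ribosomal RNA depletion kit (TruSeq Ribo-Zero Gold). STAR, DESeq2 and the build rn6 are named in the submitters' processing notes, and which program counted reads, with which strand setting, is not given in the sources used here. Deposited by the authors were normalized counts, a signal of reads divided by a library size factor, for 18282 RefSeq identifiers in 19 libraries, and tables of DESeq2 comparisons with log2 fold changes, p-values and a Wald score. The labels list 20 samples. In every library 100% of positive values were whole multiples of the smallest step within 0.001, so reads were recovered for edgeR and DESeq2 as alternatives. Symbols come from a deposited comparison table, matched by identifier. Promoters, neighbours and pseudogene names come from RefSeq (GRCr8).

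On log2(value + 1), limma 3.58.1 (R 4.3.3; trend, 2-sided) was fitted to 10926 identifiers that reached 10 in 4 or more libraries, with all 4 groups in 1 model and Benjamini-Hochberg adjustment over all of them. Fold changes on this scale understate low genes. Intervals are the estimate ± 1.96 SE. Nothing in the labels states that replicates share litters or days. The p-values set group differences against the spread between these samples. If litters or days were shared within a group, that spread could be too small. Library values were printed for up to 3 called members a class and direction with the largest change and a mean of at least 50, and called genes of other lists for up to 4 by smallest p. Alternatives were pseudocounts of 0.5 and 5, no filter, a mean of at least 50, TMM, quantile normalization, a replicate block, a robust fit, only the groups compared, edgeR 4.0.16, DESeq2 1.42.0, leaving out libraries with Myl7 over 1000 or under 3 M reads, an atrial score as covariate, and leaving out each library. The score was the mean log2 value of the atrial list, which holds Nppa. In banding, Nppa was higher by 4.67 and 4.15 on the log2 scale at 4 and 8 weeks, and Myl7 differed by -1.17 and -2.99. The score is therefore not independent of banding. The tests were checked on simulated data. The members and lists were chosen with earlier results of these data known.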

Additional observations from a re-analysis of the deposited data

Results flagged for a closer look

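Within the groups of 4 or 5 libraries, 9 of 164 sets of values (41 members in 4 groups) held a library far from the others, where chance alone marks about 1 in 20 sets. Replicate 1 of sham at 8 weeks, which is shallow and rich in Myl7, held 3 of them: Dnaja3 at 183.5 normalized counts (the others 269.7 to 299.1), Dnajc28 at 164.4 (242.6 to 271.1) and Dnajc27 at 359.3 (303.5 to 319.4). Replicate 4 of sham at 8 weeks held Hspa1a at 124.1 (59.08 to 66.9) and Hspb1 at 1793 (1363 to 1390.4). Hsp90b1 was at 2092 in replicate 5 of sham at 8 weeks (2446 to 2542). Dnajb9 was at 219.8 in replicate 4 of banding at 8 weeks (264.3 to 269.4) and at 291.8 in replicate 2 of banding at 4 weeks (246.3 to 259.4). Dnajc19 was at 294.7 in replicate 4 of banding at 4 weeks (253.7 to 258.4).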

How the results depend on the processing

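Over 45 called gene differences and 1481 alternative values, 1407 kept direction and call, 74 lost the call and 0 changed sign. Among the uncalled differences that were followed through the same alternatives, 19 values gained a call. Without libraries under 3 M reads, 1 HSP90 and 1 ER member rose at 4 weeks, and 3 ER and 5 mitochondrial members fell at 8 weeks. With the atrial score, 1 ER member rose at 4 weeks and 6 mitochondrial members fell at 8 weeks. The rises of Hspb1, Hspb3, Hspb6, Hspb7 and Hspb8 and the 8-week falls of Hspa5, Dnajb9, Dnajc15, Dnajc19 and Hspa9 held under every alternative run. Leaving out 1 library at a time, the number of called members ran from 16 to 20 at 4 weeks, 21 to 24 at 8 weeks, 0 to 1 between times in banding, 3 to 6 between times in sham and 0 to 0 for the difference of effects. The count for the difference of effects was 1 in DESeq2 (Dnajb9), that between times in sham was 1 without the libraries rich in Myl7, and that between times in banding was 1 with the atrial score as covariate (Hspe1, adjusted p = 0.0477) and 1 without replicate 4 of banding at 4 weeks (Dnajb2, adjusted p = 0.0289). The cause was not tested. The difference of effects has no value with only the groups compared. With the replicate number as a block, 18, 21, 0, 5 and 0 members were called, and Dnajc9 at 4 weeks (adjusted p = 0.0598) and Dnajc12 at 8 weeks (0.0583) lost their calls. Same-numbered libraries correlated by -0.276 to 0.323, with 5 of 18 pairs over 0.1. These values cannot decide whether same-numbered libraries share a litter or day, which the labels do not state. No rescaling moved the median of all genes by more than 0.015 on the log2 scale.

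Signs turned for uncalled members near 0. At 4 weeks, Hsp90b1 was -0.0071 with TMM, -0.031 with quantile normalization and -0.0017 in edgeR, and Hspa8 was 0.0062 with quantile normalization. Without the libraries rich in Myl7, Dnaja1 was -0.0080, Dnaja3 -0.031, Dnajb1 0.025 and Hsph1 -0.069 at 4 weeks, and Bag2 was 0.029 and Hsp90ab1 -0.041 at 8 weeks. Hspb2 at 8 weeks was 0.0029 with quantile normalization, 0.0073 with the block, 0.0088 in edgeR, 0.0098 in DESeq2 and 0.038 without libraries under 3 M reads, where Hsph1 was 0.025, and Hsp90ab1 was -0.0046 with the atrial score. With 1 library left out, the 4-week values ran from -0.018 to 0.13 for Bag2, -0.00078 to 0.13 for Dnaja1, -0.0079 to 0.13 for Dnaja3, -0.057 to 0.037 for Dnajb1, -0.12 to 0.0049 for Dnajb9, -0.034 to 0.064 for Hsp90b1, -0.33 to 0.26 for Hspa8, -0.011 to 0.10 for Hspb2 and -0.050 to 0.095 for Hsph1. The 8-week values ran from -0.036 to 0.061 for Hsp90ab1, -0.0043 to 0.14 for Hspa13, -0.071 to 0.056 for Hspb2 and -0.11 to 0.013 for Hsph1. Of the members with low counts, Hspa8 and Hsp90aa1 had SEs of 0.45 to 0.52, while Hspa1l and Hspa2 kept their calls at both times under all 32 alternatives.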
